A study of Mus musculus with 4 samples.

Results

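Sphingosine 1-phosphate (S1P) and lysophosphatidate (LPA) signalling was described in cultured mouse astrocytes through 10 genes, chosen by name as the entries of the count table whose gene symbol matched a fixed list. They were the S1P receptors S1pr1, S1pr2 and S1pr3, the LPA receptors Lpar1, Lpar4 and Lpar6, the LPA-producing enzyme Enpp2, the lipid phosphatase Plpp3, the sphingosine kinase Sphk2 and the S1P exporter Spns2. All 10 were found among the 45703 genes of the table. The data were poly-A RNA-seq libraries of 4 cultures of cortical astrocytes from wild-type CD-1 mice, an outbred strain, taken at postnatal day 4. The glia came from frontal cortex, were replated (200000 cells a dish) after 6 days and used 3 days later. All 4 cultures belong to 1 group, so there is no treated or control arm. Every culture had grown in a medium with fetal calf and horse serum, B27 and EGF at 10 ng/ml, and spent its last 1 h in fresh Ham's medium without serum before RNA was taken. The labels give no sort or antibody step and do not say how many mice went into a culture. The p-values therefore hold for these 4 libraries only, and the spread between them may be technical.

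S1P and LPA are lysophospholipids that act outside the cell as ligands of G protein-coupled receptors, and serum is a known source of both. S1P is made inside the cell from sphingosine by the sphingosine kinases and leaves it through transporters such as Spns2. LPA is made outside the cell from lysophosphatidylcholine by autotaxin, the product of Enpp2, and phosphatases on the cell surface such as Plpp3 remove the phosphate of either lipid. In astrocytes the receptors are known to act on calcium release, cell shape and proliferation.

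The libraries held 37300485 to 42369109 counts each, so that 1 count was 0.0236 to 0.0268 CPM (counts per 1000000 counts of the library). All 10 genes of a fixed astrocyte marker list reached 1 CPM in every culture, led by Slc1a3 at 2601 ± 78.6 CPM (SD, n = 4, here and below) and Gfap at 1339 ± 373 CPM. Culture 4 stood apart from the others. The median coefficient of biological variation (BCV, the spread between cultures beyond counting error) was 0.0941 over 17105 genes with enough counts, and 0.0255 over 17328 genes without culture 4. Marker lists of other cell types and states also moved in culture 4. The 10 microglial markers summed to 103.4 CPM there against 156.2 to 164.9 CPM in cultures 1 to 3, and 10 of 10 were lower than in each other culture. The 10 fibroblast markers summed to 1213 against 2115 to 2272 CPM with 7 of 10 lower and 2 higher, and the 10 proliferation genes to 2342 against 1678 to 1683 CPM with 10 of 10 higher. The 10 astrocyte markers summed to 6432 against 7450 to 7629 CPM, with 6 of 10 lower and 4 higher. The sums were 54.2 against 69.9 to 78.3 CPM for endothelial and 2936 against 3041 to 3223 CPM for mural markers. They were 393 against 421 to 436 CPM for neuronal and 1890 against 1763 to 1808 CPM for oligodendrocyte markers. For ependymal and choroid plexus markers the sum was 211 against 200 to 221 CPM. Lower than in each other culture were 5 endothelial, 7 mural, 7 neuronal, 6 oligodendrocyte and 2 ependymal and choroid plexus markers of 10 each. Higher than in each other culture were 2, 0, 0, 3 and 3 of these lists. Markers of other cell types that reached 1 CPM in every culture were 9 of 10 for microglia, 7 of 10 for the oligodendrocyte lineage, 6 of 10 for fibroblasts, 6 of 10 for neurons, 5 of 10 for mural cells, 5 of 10 for ependyma and choroid plexus and 3 of 10 for endothelium. Of the same lists Cldn5 (endothelial), Mog (oligodendrocyte), Vtn (mural), Dpt (fibroblast) and Tmem212 (ependymal) had 3 counts or fewer in all 4 libraries together, the level treated here as not detected.

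The phosphatase Plpp3 and the receptor S1pr1 were the most abundant of the 10 genes, and S1pr1 and S1pr3 were each above every LPA receptor in all 4 cultures. Of the 10 genes 9 reached 1 CPM in every culture, against 32.2% of all genes in the table, and the exception was Spns2. Levels of different genes were compared as RPKM, the CPM per kilobase of the combined exon length given in the table. In RPKM the order was Plpp3 (139 ± 8.86), S1pr1 (52.1 ± 3.16), S1pr3 (20.2 ± 3.37), Sphk2 (8.45 ± 0.40), Lpar6 (4.67 ± 0.27), Enpp2 (2.93 ± 0.17), Lpar4 (2.71 ± 0.19), Lpar1 (2.58 ± 0.26), S1pr2 (2.56 ± 0.37) and Spns2 (0.21 ± 0.067). Among the 14725 genes that reached 1 CPM in every culture, Plpp3 was at the 97th percentile of mean RPKM and S1pr1 at the 89.8th, while the 4 genes from Enpp2 to S1pr2 lay between the 24.7th and the 27.3rd.

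**Figure D1:**
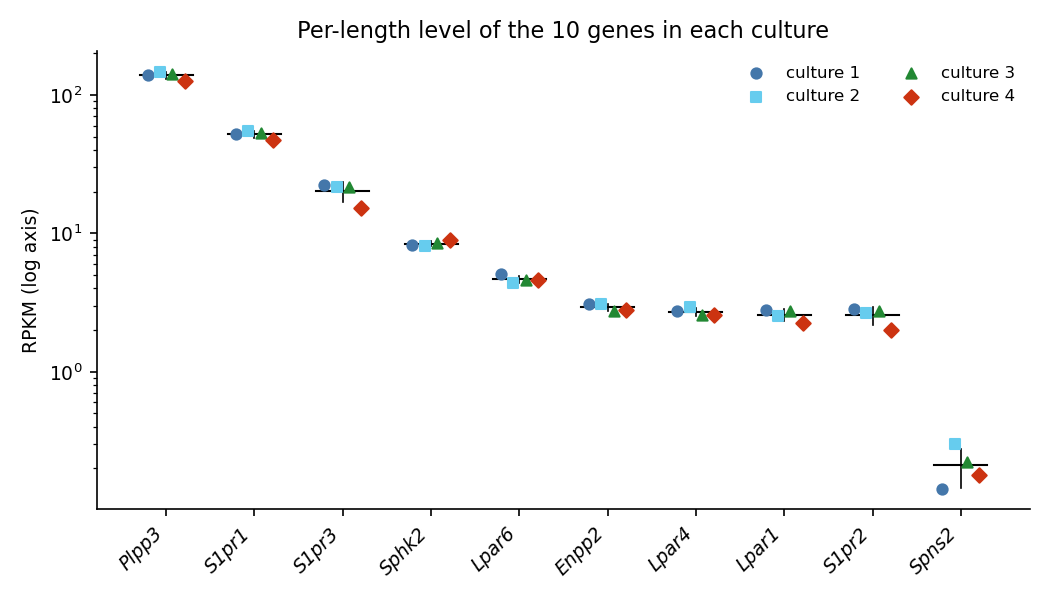
RPKM of the 10 genes (logarithmic axis) in cultures 1 to 4, ordered by mean; the bar is the mean and the vertical line ± 1 SD (n = 4). With the deposited lengths Plpp3, S1pr1, S1pr3, Sphk2 and Lpar6 form separate steps, and Spns2 lies at 0.21 RPKM. Enpp2, Lpar4, Lpar1 and S1pr2 lie close together at 2.56 to 2.93 RPKM. With GENCODE lengths these spread from 1.57 (S1pr2) to 6.11 RPKM (Enpp2), and Lpar6 is at 2.13 RPKM, below Lpar4 (2.71).

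Of the 9 neighbouring pairs in this order, 6 differed and 3 did not pass the test. Each gene of the order except Spns2 was set against all other genes with enough counts in an edgeR quasi-likelihood fit of per-length levels. Between 91.7% (S1pr3) and 99.4% (Plpp3) of the 17104 other genes differed from the gene they were set against. A difference between a pair is thus the rule in these data. The corresponding shares were 97.9% for S1pr1, 95.5% for Sphk2, 95% for Lpar6, 94.7% for Enpp2, 95% for Lpar4, 94.4% for Lpar1 and 92.8% for S1pr2. The log2 ratio of Plpp3 to S1pr1 was 1.42 ± 0.049 (SE; edgeR, Benjamini-Hochberg adjusted p = 7.03e-09), with Plpp3 higher in 4 of 4 libraries. S1pr3 was above Sphk2 by 1.24 ± 0.16 (SE; edgeR, adjusted p = 2.37e-09; 4 of 4 libraries), with 1.35 to 1.43 in cultures 1 to 3 and 0.75 in culture 4. Sphk2 was above Lpar6 by 0.86 ± 0.059 on the log2 scale (SE; edgeR, adjusted p = 7.39e-06; 4 of 4 libraries), and Lpar6 above Enpp2 by 0.67 ± 0.08 (SE; edgeR, adjusted p = 2.44e-12; 4 of 4 libraries). Without a length term the fold of Sphk2 over Lpar6 was 3.05 and with GENCODE lengths 4.65, against 1.81. The pairs that did not pass were Enpp2 and Lpar4 (log2 ratio 0.12 ± 0.082, SE; edgeR, adjusted p = 0.179; Enpp2 higher in 4 of 4 libraries), Lpar4 and Lpar1 (0.073 ± 0.09, SE; edgeR, adjusted p = 0.432; Lpar4 higher in 2 of 4) and Lpar1 and S1pr2 (0.019 ± 0.11, SE; edgeR, adjusted p = 0.868; Lpar1 higher in 2 of 4). The order among Lpar6, Enpp2, Lpar4 and Lpar1 changed with the length used, as described with the LPA receptors. Lpar1 was above S1pr2 by 0.59 without a length term and by 1.44 with GENCODE lengths, and both passed.

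Among the S1P receptors, S1pr1 made up most of the transcripts, S1pr3 came next, S1pr2 was a small part, and S1pr4 and S1pr5 were not above 1 CPM in any culture. S1pr1 (GeneID 13609; GRCm38.p6, chromosome 3, 115710433 to 115715055, minus strand) encodes a receptor that couples to Gi. It stood at 158.9, 166.2, 161.8 and 144.1 CPM in cultures 1 to 4. Its lowest value was that of culture 4, and cultures 1 to 3 lay close together. S1pr3 (GeneID 13610; chromosome 13, 51408618 to 51422797, plus strand) encodes a receptor that couples to Gi, Gq and G12/13. Its values were 99.7, 97.8, 96.7 and 68.0 CPM, so that cultures 1 to 3 were close and culture 4 lay below all of them. S1pr2 (GeneID 14739; chromosome 9, 20965952 to 20976793, minus strand), whose product is known for coupling to G12/13, had the same shape at a lower level, with 11.1, 10.4 and 10.8 CPM in cultures 1 to 3 and 7.93 CPM in culture 4. Each of these genes has 2 exons in GENCODE release M21.

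As a share of the summed RPKM of the 5 S1P receptor genes, S1pr1 held 69.6% ± 2.47, S1pr3 26.8% ± 2.36 and S1pr2 3.4% ± 0.24. In culture 4 the share of S1pr1 was 73.2%, against 67.6% to 69.1% in the others, and that of S1pr3 was 23.3%, against 27.5% to 28.7%. S1pr1 was 2.60-fold above S1pr3 (log2 ratio 1.38 ± 0.075, SE; edgeR, adjusted p = 2.07e-07; higher in 4 of 4 libraries). The log2 ratio in single libraries was 1.24, 1.33 and 1.31 in cultures 1 to 3 and 1.65 in culture 4. S1pr1 was 20.5-fold above S1pr2 and S1pr3 7.87-fold above S1pr2, each in 4 of 4 libraries. These folds were 33.2 and 12.9 with the length of the longest GENCODE transcript, which is 6394 bases for S1pr2 against the deposited 3927. The remaining members of the family were at the edge of detection. S1pr5, known as the receptor of oligodendrocytes and natural killer cells, had 0.27, 0.21, 0.19 and 0.57 CPM in cultures 1 to 4, and S1pr4, a receptor of lymphoid cells, had 2 counts in all. Neither had enough counts to be tested.

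**Figure D2:**
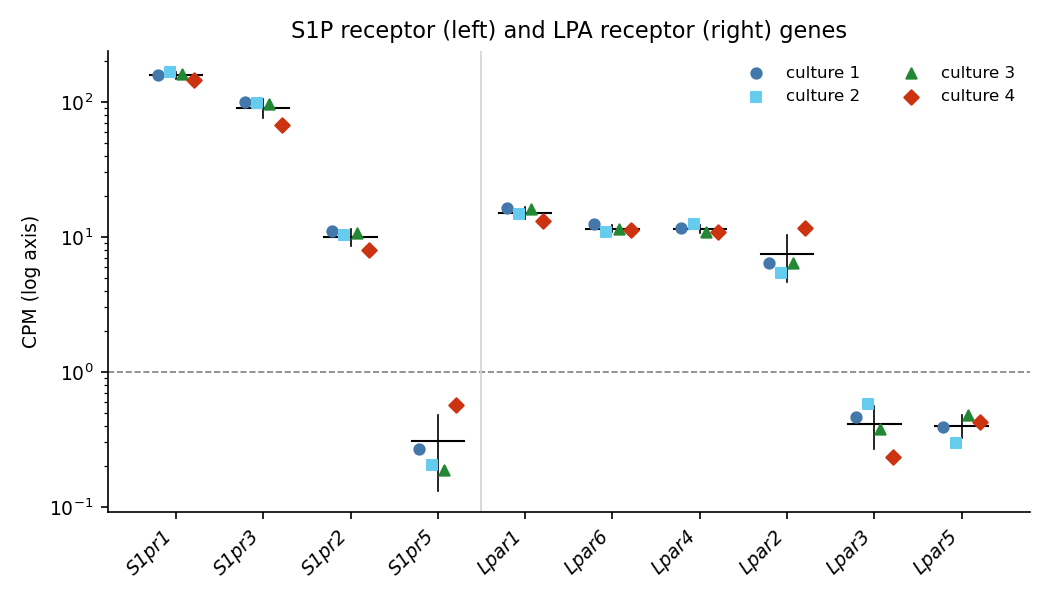
CPM (logarithmic axis) of 4 S1P receptor genes and 6 LPA receptor genes in cultures 1 to 4; the bar is the mean, the vertical line ± 1 SD (n = 4) and the dashed line 1 CPM. S1pr4, with 2 counts in all, is not drawn. In culture 4 S1pr1, S1pr3, S1pr2, Lpar1 and Lpar3 lie below the other cultures, and S1pr5 and Lpar2 lie above them. S1pr5, Lpar3 and Lpar5 lie under 1 CPM in all 4.

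In S1pr3 and S1pr2 alone of the 10 genes the mean of the other cultures exceeded culture 4 by over 25%. These are 2 of 10 genes, against 13.7% of the 17105 genes tested, so the share is near that background. The bases before the start sites of both are shown side by side. They come from RefSeq (GRCm38.p6), cover 250 bases before the annotated start, read 5′ to 3′ on the strand of the gene, and have each CpG in capitals. The first lies at chr13:51408368-51408617 (plus strand) and the second at chr9:20976794-20977043 (minus strand).
S1pr3: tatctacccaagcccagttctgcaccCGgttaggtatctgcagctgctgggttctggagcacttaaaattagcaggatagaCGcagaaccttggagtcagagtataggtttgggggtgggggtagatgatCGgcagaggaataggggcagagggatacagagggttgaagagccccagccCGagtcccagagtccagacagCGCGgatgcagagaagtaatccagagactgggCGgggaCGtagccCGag
S1pr2: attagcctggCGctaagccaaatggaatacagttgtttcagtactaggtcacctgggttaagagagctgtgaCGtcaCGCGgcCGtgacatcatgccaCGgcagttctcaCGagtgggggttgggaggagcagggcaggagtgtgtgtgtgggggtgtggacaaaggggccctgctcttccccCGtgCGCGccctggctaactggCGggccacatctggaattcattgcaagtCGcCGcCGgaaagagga
The S1pr3 window holds 9 CpGs and the S1pr2 window 14, against a median of 6 over 32841 windows of the same length (quartiles 2 and 16). The letters GGGCGG, searched on both strands, are in the S1pr3 window and not in that of S1pr2, and in 32.8% of all windows. Of the 11 windows found for 8 of the 10 genes, 6 hold these letters. A match of letters is a description of the window, and no binding was measured.

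The LPA receptors were lower and more evenly spread over their family than the S1P receptors. The 6 LPA receptor genes summed to 11.5 ± 0.39 RPKM and the 5 S1P receptor genes to 75.0 ± 6.69 RPKM. Lpar1 (GeneID 14745; chromosome 4, 58435252 to 58554027, minus strand), the first known LPA receptor and a member of the same receptor branch as the S1P receptors, stood at 16.4, 14.7, 16.1 and 13.1 CPM in cultures 1 to 4. Lpar4 (GeneID 78134; chromosome X, 106920625 to 106933899, plus strand) and Lpar6 (GeneID 67168; chromosome 14, 73237891 to 73240358, plus strand) encode receptors of the other branch, which is related to the P2Y nucleotide receptors. Lpar4 had 11.7, 12.5, 10.8 and 10.9 CPM, and Lpar6 had 12.5, 10.9, 11.4 and 11.3 CPM. The ranges of Lpar4 and Lpar6 over the cultures overlapped in CPM, and culture 4 lay inside the range of the others for both. The per-length level of Lpar6 was 1.72-fold that of Lpar4 (edgeR, adjusted p = 1.44e-12) and 1.81-fold that of Lpar1 (edgeR, adjusted p = 1.18e-15), each in 4 of 4 libraries.

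The lead of Lpar6 depended on its length. The deposited length of Lpar6 is 2468 bases, while its transcript in the basic GENCODE set is a single exon of 5400 bases that ends further downstream, at 73243294. With GENCODE lengths Lpar6 was below Lpar4 (log2 ratio -0.34) and below Lpar1 (-0.99), and without a length term the ratio to Lpar4 was 0.0068 and that to Lpar1 -0.38. Lpar1 was then the highest of the 3 in either setting, with a log2 ratio of Lpar4 to Lpar1 of -0.39 without a length term and -0.65 with GENCODE lengths. Lpar6 lies whole within the span of Rb1, the retinoblastoma gene, which is on the minus strand and stood at 122.5 ± 6.85 CPM. No exon base of Lpar6 is shared with an exon of another gene in GENCODE. Whether reads from introns of Rb1 entered the count of Lpar6 was not tested, as no source used here gives the strand setting.

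**Figure D3:**
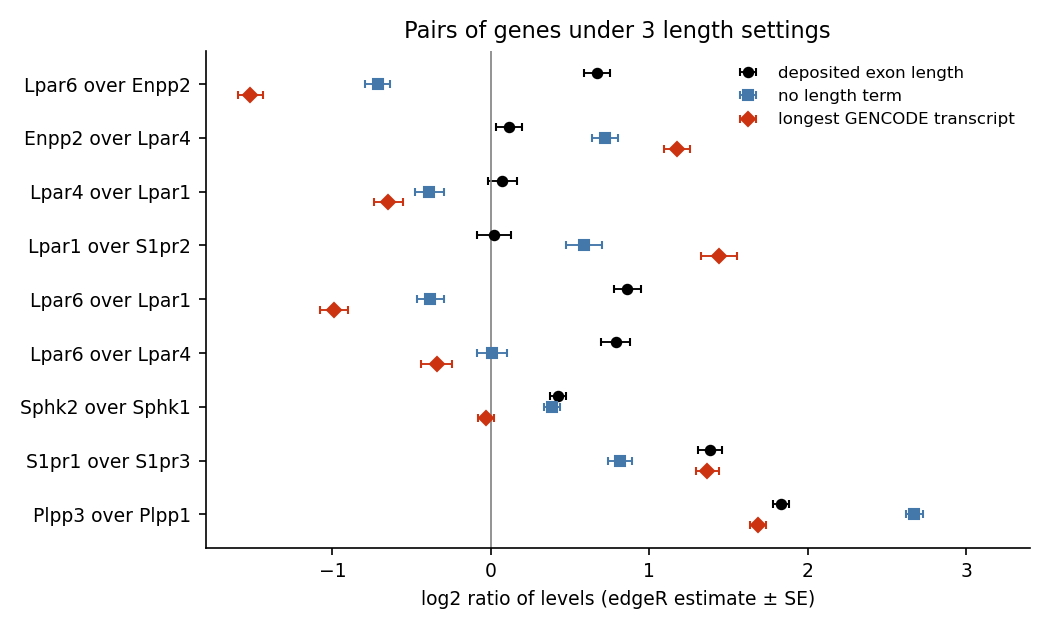
Log2 ratios of levels for 9 pairs of genes (edgeR estimate ± SE, 4 cultures) with the deposited exon length, with no length term and with the longest GENCODE transcript. Lpar6 over Enpp2, Lpar1 or Lpar4, Lpar4 over Lpar1 and Sphk2 over Sphk1 change sign between settings, while S1pr1 over S1pr3 and Plpp3 over Plpp1 stay above 0 in all 3.

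Of the other LPA receptors, Lpar2 had 6.40, 5.36, 6.41 and 11.7 CPM in the 4 cultures, the last above all others. It was the only pathway gene outside the 10, among 60 with enough counts, that was over 25% higher in culture 4 than the mean of the others. Its share of the summed RPKM of the family was 17.7% in culture 4 and 8.46% to 9.95% in the others. Part of its counts were not whole numbers, so its level is uncertain. Lpar1 was 2.05-fold above Lpar2 (log2 ratio 1.03 ± 0.16, SE; edgeR, adjusted p = 4.13e-07; 4 of 4 libraries), and single libraries gave 1.29 to 1.43 in the first 3 cultures but 0.12 in culture 4. The fold of Lpar1 over Lpar2 was 3.43 with GENCODE lengths. Lpar3 (66 counts in all) and Lpar5 (64 counts) were under 1 CPM in every culture.

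Over the families of receptors, kinases and phosphatases, 24 pairs of paralogues held at least 1 of the 10 genes and 15 of them had enough counts. Of these 15, 14 differed, a share near that of all genes, and Lpar4 and Lpar1 were the pair that did not pass. Which pair missed the threshold changed with the length. Without a length term Lpar4 and Lpar1 passed (edgeR, adjusted p = 6.17e-05) and Lpar6 and Lpar4 did not (edgeR, adjusted p = 0.944). With GENCODE lengths Sphk2 and Sphk1 did not pass (edgeR, adjusted p = 0.538). Without a filter on low counts 23 of 24 differed.

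Enpp2 and Plpp3, which make and break down LPA outside the cell, differed widely. Enpp2 (GeneID 18606; chromosome 15, 54838901 to 54952789, minus strand), with 25 exons, stood at 19.8, 19.9, 17.9 and 18.1 CPM in cultures 1 to 4, and culture 4 lay inside the range of the others. Its deposited length of 6444 bases is more than that of its longest GENCODE transcript, 3095 bases, and with GENCODE lengths Enpp2 was above both Lpar6 (log2 ratio of Lpar6 to Enpp2 -1.52) and Lpar4 (log2 ratio 1.18). Plpp3 (GeneID 67916; chromosome 4, 105157347 to 105232767, plus strand), with 6 exons, stood at 443, 464, 450 and 399 CPM, which put it at rank 283 of the table. Its lowest value was that of culture 4. Its paralogue Plpp1 had 69.1 ± 5.75 CPM and Plpp2 6.47 ± 0.96 CPM. Plpp3 held 76.4% ± 0.72 of the summed RPKM of these phosphatases and was 3.55-fold above Plpp1 (log2 ratio 1.83 ± 0.052, SE; edgeR, adjusted p = 1.85e-09; 4 of 4 libraries) and 35.6-fold above Plpp2. Without the length term the folds were 6.37 and 68.2. Other sources of LPA were led by enzymes inside the cell. Gpam, which makes LPA as a step of glycerolipid synthesis, had 132 ± 10.2 CPM, and the kinase Agk had 24.3 ± 0.57 CPM. The phospholipase Pla1a had 0.62 ± 0.17 CPM.

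On the S1P side, both kinases were expressed, and the exporter Spns2 averaged 0.86 ± 0.27 CPM. Sphk2 (GeneID 56632; chromosome 7, 45709463 to 45718002, minus strand) stood at 34.4, 33.7, 35.2 and 37.5 CPM in cultures 1 to 4, and was the only 1 of the 10 genes with its highest value in culture 4 and above all others there. Sphk1, the other sphingosine kinase, had 27.0 ± 1.14 CPM. The per-length level of Sphk2 was 1.34-fold that of Sphk1 (log2 ratio 0.42 ± 0.05, SE; edgeR, adjusted p = 0.000164; 4 of 4 libraries), and with GENCODE lengths the log2 ratio was -0.033. Of the exon bases of Sphk2 in GENCODE, 21.9% overlap exons of Dbp or Rpl18 on the other strand (86.6 ± 10.4 and 236 ± 13.3 CPM), and Sphk2 was the only gene of the 10 with counts that were not all whole. The only such count was 1350.17, in culture 2. The level of Sphk2 is uncertain because of the overlap, since no source used here gives the strand setting.

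Spns2 (GeneID 216892; chromosome 11, 72451638 to 72489976, minus strand), with 13 exons, had 24, 49, 34 and 31 counts, or 0.58, 1.22, 0.91 and 0.73 CPM, in cultures 1 to 4. The exact 95% Poisson intervals, which cover counting error only, were 0.37 to 0.87 CPM in culture 1 and 0.90 to 1.62 CPM in culture 2. Cultures 1 and 2 were the lowest and the highest, and culture 4 lay between them. It was 12.2-fold below S1pr2, its neighbour in the order (edgeR, adjusted p = 6.72e-19; 4 of 4 libraries), and 5.95-fold below it with GENCODE lengths. Of its exon bases 4.04% overlap Mybbp1a on the other strand (153 ± 17.4 CPM). Whether reads of Mybbp1a entered the count of Spns2 was not tested, as no source used here gives the strand setting. The BCV of Spns2, 0.225, was the highest of the 10 and lay above that of 95% of the genes tested. Mfsd2b, the S1P exporter of blood cells, was as low, at 0.54 ± 0.13 CPM. Transporters for which S1P export is one of several roles were higher, with Abca1 at 175 ± 5.11 CPM and Abcc1 at 64.4 ± 8.05 CPM. Sgpl1, the lyase that ends the S1P pathway, had 251, 252, 254 and 213 CPM, lowest in culture 4, and the phosphatase Sgpp1 at 66.7 ± 4.41 CPM.

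Between the cultures, S1pr3 and S1pr2 were past 25% lower in culture 4, and Spns2 varied most between cultures 1 and 2. Each culture was set against the mean CPM of the other 3, as values of single libraries with no test, and called past 25% where the higher of the 2 exceeded the lower by more than that. In culture 4 S1pr3 lay at a log2 difference of -0.53 (1.44-fold lower) and S1pr2 at -0.44 (1.36-fold lower). These 2 of 10 genes were past 25% lower, against 13.7% of the 17105 genes tested, and 0 of 10 were past 25% higher, against 11.7%. A share of 2 in 10 is near that background. Past 1.5-fold there were 0 of 10, against 6.66% of genes lower and 3.37% higher. Under TMM scaling 3 of 10 were past 25% lower, with Spns2 at -0.34 as the third. Without culture 1 there were also 3 of 10, and Spns2 at -0.54 was then below S1pr3 (-0.52) and S1pr2 (-0.41). The other differences in culture 4 were -0.31 for Spns2, -0.27 for Lpar1, -0.18 for Plpp3, -0.17 for S1pr1, -0.11 for Lpar4, -0.086 for Enpp2, -0.032 for Lpar6 and 0.12 for Sphk2. The median over the 10 genes was -0.18 and that over all genes tested 0.032. In 5 of 10 genes culture 4 was below each other culture, against 34.6% of the genes tested, and in 1 of 10 above each of them, against 45.5%.

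**Figure D4:**
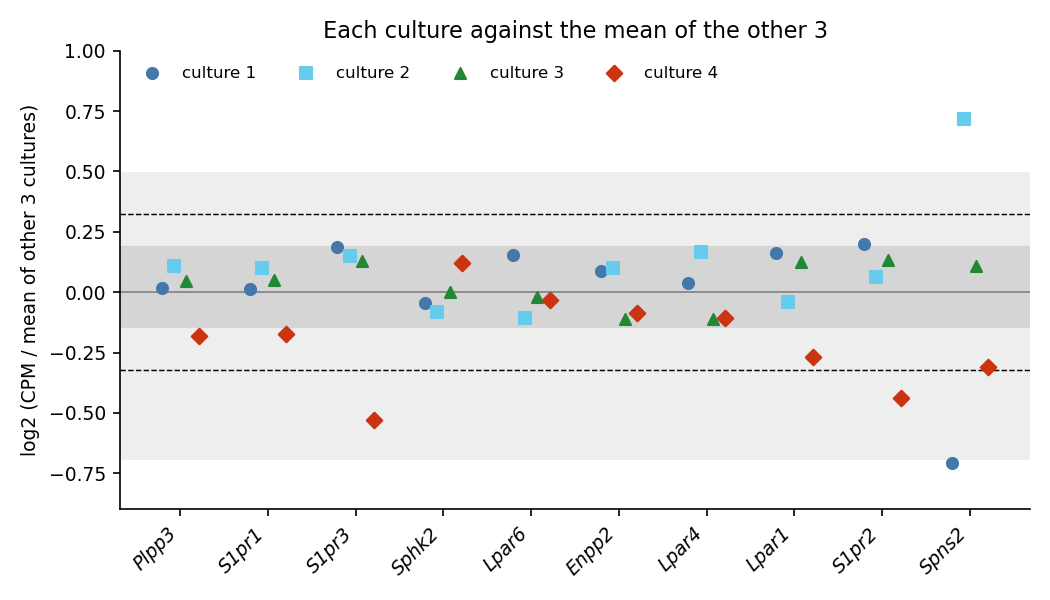
Log2 ratio of CPM in each culture to the mean CPM of the other 3, for the 10 genes in order of RPKM. Dark and light grey bands hold the middle 50% and 90% of the 17105 genes tested in culture 4, and dashed lines mark 25%. S1pr3 at -0.53 and S1pr2 at -0.44 in culture 4 lie below the dashed line, and Spns2 spreads from -0.71 in culture 1 to 0.72 in culture 2.

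In cultures 1 to 3 no gene of the 10 other than Spns2 was past 25%. Spns2 was lower in culture 1 (-0.71) and higher in culture 2 (0.72), at 24 and 49 counts. The share of genes past 25% lower was 4.76%, 4.30% and 4.47% in cultures 1, 2 and 3, and past 25% higher 3.35%, 3.84% and 4.48%. The median BCV of the 10 genes was 0.0914, close to the 0.0941 of all genes tested. S1pr3 and S1pr2 had a BCV of 0.144 and 0.141, above 81.9% and 80.8% of the genes tested, and without culture 4 these values were 0.0234 and 0.0276. Marker genes were set beside the 13.7% of all genes tested that were past 25% lower in culture 4. Those past 25% lower there, of the markers with enough counts, were 10 of 10 for microglia, 5 of 8 for fibroblasts and 5 of 8 for neurons. They were 4 of 5 for endothelium, 3 of 6 for mural cells, 2 of 7 for the oligodendrocyte lineage and 1 of 6 for ependyma and choroid plexus. Pdgfra, in both the fibroblast and the oligodendrocyte list, was past 25% higher (log2 difference 0.69). Of the astrocyte markers 4 of 10 were past 25% lower, with log2 differences of -1.16 for S100b, -0.97 for Gfap, -0.46 for Aqp4 and -0.39 for Gja1. None was past 25% higher, though 4 of 10 were higher than in each other culture. These were Slc1a2 (0.31), Aldoc (0.16), Sox9 (0.076) and Aldh1l1 (0.0485), and the median of the list was -0.085. Of the proliferation genes 7 of 10 were past 25% higher, against 11.7% of all genes tested. The part of these cells and states in the receptor values was not tested. In bulk RNA fewer cells of a type and less RNA per cell cannot be told apart.

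Of 71 further pathway genes in 12 lists, 56 reached 1 CPM in every culture, against 32.2% of all genes in the table. All 7 genes of the list of G protein alpha subunits were among them, led by Gnai2 (890 ± 34.0 CPM) and Gna13 (165 ± 2.71 CPM). In ceramide synthesis 10 of 13 genes were expressed, led by Cers2 (164 ± 9.70 CPM) and Degs1 (139 ± 7.22 CPM). All 6 genes of LPA reacylation and intracellular breakdown were expressed, led by Agpat3 (690 ± 72.1 CPM) and Agpat1 (91.0 ± 6.95 CPM). Asah1, the acid ceramidase that releases sphingosine, stood at 168 ± 5.31 CPM.

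In culture 4, 7 of the 60 further pathway genes with enough counts were past 25% lower and 1 was past 25% higher, against the 13.7% and 11.7% of all genes tested, so that the lower count was no larger than the background. Their median log2 difference was -0.088. The 7 were Abcc1, Pla1a, Agpat2, Cers1, Cers6, Ccn1 and Ccn2. Ccn1 and Ccn2 are targets of the transcription regulators SRF and YAP. Ccn1 had 189, 199, 214 and 121 CPM, lowest in culture 4. The list that holds Ccn1 and Ccn2 also holds genes of regulators, such as Srf, Yap1 and Wwtr1. Its other genes with enough counts did not pass 25%, among them Vcl (306 ± 14.6 CPM) and Wwtr1 (211 ± 10.8 CPM). Ankrd1, with 19 counts in all, was too low to be tested.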

How the data were processed

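Poly-A RNA-seq libraries of 4 cultures, 1 group, were used. The authors deposited estimated counts per RefSeq gene, of which 31.7% of the values above 0 were not whole. The submitters' processing notes name, without roles or settings, GRCm38.p6, STAR 2.7.2b, featureCounts 1.6.4, cutadapt 1.17 and bcl2fastq 2.20.0.422. The deposited combined exon length gave RPKM, which understates genes expressed from short isoforms.

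CPM used raw library sums. Pairs were tested with edgeR 4.0.16 (R 4.3.3; two-sided) on rounded counts. In each fit 1 reference gene stood against every gene passing filterByExpr, with an offset of library size times length, terms for library and gene, and Benjamini-Hochberg adjustment over all genes at 0.05. The SE was the size of the log2 ratio divided by the root of F. The reference enters every feature of its fit, so p-values of different references are not comparable. The spread is estimated with all genes of a fit, so an SE is not the spread of 1 pair. For Plpp3 to S1pr1 the single-library log2 ratios ran from 1.41 to 1.42, with an SE of 0.049. Without culture 4 the adjusted p of that pair (edgeR) went from 7.03e-09 to 3.61e-288. The fit was also run on simulated counts in which the reference gene had no spread between libraries. That run cannot show how the p-values behave with a reference that varies. BCV came from edgeR with TMM and an intercept. DESeq2 1.42.0, TMM, other lengths, no filter, left-out cultures and cultures 1 to 3 summed as 1 library were alternatives. Members, lists and tests were chosen with earlier results of these data known. The text names the 10 genes, their paralogues, the top 2 of the pathway lists by CPM and genes with a culture past 1.5-fold. Genes that were named for passing 25% in culture 4 were chosen after their values were seen. Likeness of pattern was not used, since 4 libraries are too few for a correlation. The results of 1 pathway list are not reported here. Promoter windows were found for 8 of the 10 genes, and not for S1pr1 and Enpp2.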

Additional observations from a re-analysis of the deposited data

Results flagged for a closer look

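In 7 of 39 genes named by rule, 1 culture lay further from the other 3 than Dixon's criterion for 4 samples allows. For a gene not chosen by its values chance gives about 1 in 20, and 14.1% of the 17105 genes tested met the criterion here. The 7 of 39 cannot be set against a chance rate, since the rule also names genes for a culture past 1.5-fold. S1pr4, S1pr5 and Lpar3 lacked enough counts and are not among the 17105. In 6 of the 7 the culture was culture 4. S1pr3 was lower there at 68.0 CPM, as were Sgpl1 at 213 CPM, Abcc1 at 52.4 CPM, Agpat1 at 80.6 CPM and Cers2 at 149 CPM, while Lpar2 was higher at 11.7 CPM. S1pr4 met it through culture 3 at 0.054 CPM, which is 2 counts against 0 in the others and lies within the level treated as not detected.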

How the results depend on the processing

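With no filter on low counts, 23 of 24 paralogue pairs differed in place of 14 of 15, since more pairs were tested. Past 1.5-fold in place of 25%, 0 of 10 genes were apart in culture 4. The median BCV of the 10 genes lay between 0.0289 and 0.112 with 1 culture left out, and the low end was that without culture 4. Without a length term the log2 ratio was -0.71 for Lpar6 to Enpp2, -0.39 for Lpar4 to Lpar1 and -0.38 for Lpar6 to Lpar1. With GENCODE lengths it was -1.52, -0.65 and -0.99 for these pairs, -0.34 for Lpar6 to Lpar4 and -0.033 for Sphk2 to Sphk1. With 1 culture left out the ratio of Lpar1 to S1pr2 ran from -0.023 (without culture 4) to 0.047. The 9 pairs that are neighbours with the deposited lengths all differed without a length term and with GENCODE lengths. Not all of them are neighbours in the order of those settings. In every other setting run 6 differed, also with cultures 1 to 3 summed as 1 library. In that setting S1pr3 was above Sphk2 by 1.08 ± 0.49 on the log2 scale (SE; edgeR, adjusted p = 0.0398). Sphk2 was above Lpar6 by 0.89 ± 0.11 (SE; edgeR, adjusted p = 0.00104) and Lpar1 above Lpar2 by 0.74 ± 0.28 (SE; edgeR, adjusted p = 0.0105). Not every p-value rose, and Plpp3 was above S1pr1 by 1.41 ± 0.17 (SE; edgeR, adjusted p = 1.76e-17). Levels of low genes are limited by depth, with 3 counts at 0.0708 to 0.0804 CPM. No paired analysis was possible because the series has 1 group.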
